A study of Mus musculus with 20 samples.

Results

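The 10 genes described here encode the vascular endothelial growth factors Vegfa and Vegfc, the receptors Flt1, Kdr and Flt4, the co-receptors Nrp1 and Nrp2, the angiopoietins Angpt1 and Angpt2 and their receptor Tek. They were chosen by symbol from 46078 genes in the count tables, with no measured value in the rule. Earlier results of these data were known when they were chosen, so the shares over all genes set beside their counts are descriptive. All 10 were found and passed the filter on low counts in every comparison. The counts come from bulk RNA-seq of the brains of male C57BL/6J wild-type mice aged 18 months. All mice had a DH stroke, in which the distal middle cerebral artery is closed and the animal then breathes low oxygen, and all tissue was taken 7 weeks later. Mice were injected under the skin with vehicle (sterile PBS) or with 4 g/kg HPBCD (2-hydroxypropyl-β-cyclodextrin, a cyclic oligosaccharide that solubilizes cholesterol), 3 times per week for 6 weeks, starting 1 week after stroke. Each of the 4 groups had 5 libraries: vehicle peri-infarct, vehicle contralateral, HPBCD peri-infarct and HPBCD contralateral tissue. Peri-infarct tissue was what lay beside the infarct after the infarct had been cut away, contralateral tissue was the matching piece of the opposite hemisphere, and no unoperated mice are among the groups.

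Vegfa is secreted by neural and other cells and acts on the endothelial receptor tyrosine kinase Kdr (VEGFR2) to drive vessel growth and leak, while Flt1 (VEGFR1) binds Vegfa tightly and limits how much reaches Kdr. Vegfc acts mainly through Flt4 (VEGFR3), best known from lymphatic vessels, and the neuropilins Nrp1 and Nrp2 hold VEGF ligands or class 3 semaphorins at the surface of endothelial cells, neurons and immune cells. Angpt1 activates Tek (Tie2) and keeps vessels stable, and Angpt2 competes with it at the same receptor.

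The genes lie on 7 chromosomes of the GRCm38 build (GENCODE M21 coordinates). Vegfa (ENSMUSG00000023951) is at chromosome 17, 46016993 to 46032369, on the minus strand. Vegfc (ENSMUSG00000031520) is at chromosome 8, 54077606 to 54187096, on the plus strand. Angpt1 (ENSMUSG00000022309) is at chromosome 15, 42424723 to 42676977, on the minus strand, and Angpt2 (ENSMUSG00000031465) is at chromosome 8, 18690263 to 18741562, on the minus strand. These 4 genes encode the ligands. Among the receptors, Flt1 (ENSMUSG00000029648) is at chromosome 5, 147561604 to 147726011, and Kdr (ENSMUSG00000062960) is at chromosome 5, 75932827 to 75978458, both on the minus strand. Flt4 (ENSMUSG00000020357) is at chromosome 11, 49609263 to 49652739, and Tek (ENSMUSG00000006386) is at chromosome 4, 94739289 to 94874976, both on the plus strand. The co-receptor genes Nrp1 (ENSMUSG00000025810; chromosome 8, 128358604 to 128503363) and Nrp2 (ENSMUSG00000025969; chromosome 1, 62703285 to 62818695) are on the plus strand. Reads were counted over the exons of each gene. Exons of Angpt1 overlap Gm17473 on the opposite strand over 737 bp and exons of Nrp1 overlap Mir1903 over 80 bp. The strand option of the counting is not given in the sources used here. The counts of Angpt1 are therefore uncertain over the bases shared with Gm17473.

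The bases just upstream of 4 of the genes are shown, because Vegfc and Nrp2 were higher and Vegfa was lower in peri-infarct tissue in at least 1 comparison while Tek was called in none of the 5 comparisons when all their libraries were used (edgeR, below). They are RefSeq sequence of GRCm38.p6, read on the strand of the gene. Each stops at the last base before the gene start in both RefSeq and GENCODE. Capitals mark GGGCGG or its reverse complement CCGCCC, the core of the GC box bound by Sp1.
Vegfa, chr17:46032378-46032627, minus strand: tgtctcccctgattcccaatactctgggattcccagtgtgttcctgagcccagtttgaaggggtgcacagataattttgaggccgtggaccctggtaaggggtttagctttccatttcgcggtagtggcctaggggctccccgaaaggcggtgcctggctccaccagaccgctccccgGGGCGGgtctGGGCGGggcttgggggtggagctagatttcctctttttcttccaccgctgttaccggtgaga
Vegfc, chr8:54077282-54077531, plus strand: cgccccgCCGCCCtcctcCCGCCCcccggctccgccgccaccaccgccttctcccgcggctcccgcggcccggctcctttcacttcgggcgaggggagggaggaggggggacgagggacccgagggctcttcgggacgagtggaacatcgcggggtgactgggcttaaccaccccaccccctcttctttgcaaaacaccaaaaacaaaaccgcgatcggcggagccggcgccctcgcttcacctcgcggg
Nrp2, chr1:62703067-62703284, plus strand: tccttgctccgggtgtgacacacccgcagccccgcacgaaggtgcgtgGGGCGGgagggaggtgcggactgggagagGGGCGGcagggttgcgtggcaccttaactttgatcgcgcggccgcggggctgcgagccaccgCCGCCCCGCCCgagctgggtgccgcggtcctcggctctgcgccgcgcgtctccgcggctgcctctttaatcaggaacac
Tek, chr4:94739039-94739288, plus strand: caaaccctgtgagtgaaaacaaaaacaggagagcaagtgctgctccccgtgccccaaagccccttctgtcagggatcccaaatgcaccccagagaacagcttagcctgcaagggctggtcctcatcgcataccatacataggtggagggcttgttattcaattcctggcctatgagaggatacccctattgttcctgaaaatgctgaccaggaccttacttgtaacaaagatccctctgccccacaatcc
The RefSeq table held a promoter for 8 of the 10 genes, all but Angpt1 and Angpt2, and 6 of these 8 kept over 200 bases outside the GENCODE gene. GGGCGG, on either strand, was found in 5 of the 6 (2 matches for Vegfa, Vegfc and Kdr, 3 for Flt1, 4 for Nrp2 and 0 for Tek), against 32.7% of 32851 promoter windows of 250 bases. Kdr, like Tek, was called in none of the 5 comparisons (edgeR). GGGCGG was searched for after the data had been seen, and whether its matches go with the calls was not tested. G and C made up 72.5% of the bases upstream of Nrp2, 71.6% of those upstream of Vegfc, 59.2% for Vegfa and 51.2% for Tek, with a median of 52.4% over all windows. ACGTG, the core of the hypoxia response element, was found in 0 of the 6 on either strand, against 16.6% of all windows. The windows held at most 250 bases, so this search could not find elements farther upstream or within the genes.

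Gene counts per library were 14445021 to 22171627, and 3 counts were worth 0.135 to 0.208 CPM, a unit in which all library totals are made equal, here with TMM factors over the 20 libraries. Every gene was counted in every library, from 12 counts of Angpt2 at the lowest to 2329 of Flt1 at the highest, so the low levels of Angpt2 (median 45 counts), Vegfc (60) and Flt4 (71) are the least precise. Some libraries stood apart. Vehicle contralateral replicate 1 had 1158 CPM summed over 5 striatal markers against 73.7 to 89.6 CPM in the other vehicle contralateral libraries, HPBCD contralateral replicate 3 had 612 CPM of ependyma and choroid plexus markers against 5.3 to 11.6 CPM in its group, and HPBCD peri-infarct replicate 3 had 734 CPM of them against 90.4 to 238 CPM in its group. HPBCD contralateral replicate 4 had 40.07% of its read pairs assigned to no single gene against 25.14% to 33.69% in the other 19 libraries. Results are therefore also given without these 3 contralateral libraries where that changes a call, and HPBCD peri-infarct replicate 3 was left out in a fit of its own. No transcript reports exposure to HPBCD, so the treatment of a library is known from its label alone. A list of 33 genes with a stated direction for HPBCD in peri-infarct tissue, drawn up on these same samples, was compared with the labels. Of its 32 tested genes, 0 moved in the listed direction and 32 moved in the other, 18 of them past the edgeR threshold. Each direction between treatments below is therefore that of the libraries as labelled. Whether the labels or the listed directions are reversed was not tested. With the labels exchanged, the comparisons between regions in vehicle and in HPBCD mice would trade places. The signs between treatments and of the interaction would turn.

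Levels can be compared between genes only per length, so CPM was divided by the exon length of the gene in kb. In vehicle contralateral tissue, Vegfa was at 13.5 ± 1.07 CPM per kb (SD, n = 5) and led the 10 genes, as it did in all 4 groups. Flt1 was next at 7.07 ± 1.62 CPM per kb, followed by Tek at 3.38 ± 0.712, Nrp1 at 2.72 ± 0.347, Kdr at 1.97 ± 0.562, Nrp2 at 1.49 ± 0.39 and Vegfc at 1.17 ± 0.309. Angpt1 (0.696 ± 0.308 CPM per kb), Angpt2 (0.585 ± 0.361) and Flt4 (0.503 ± 0.0921) were lowest. The ranges of Vegfa and Flt1 did not meet (lowest Vegfa 12.3, highest Flt1 9.4 CPM per kb) and those of Flt1 and Tek did not meet (lowest Flt1 4.89, highest Tek 4.21), whereas from Tek downward each gene's range met that of its neighbour in this order. In HPBCD peri-infarct tissue, Vegfa was again highest at 9.77 ± 1.37 CPM per kb. Nrp1 was then at 7.23 ± 2.26 CPM per kb, above the mean of Flt1 (5.9 ± 0.875) and of Nrp2 (5.88 ± 1.21), and Angpt1 followed at 4.19 ± 1.1 CPM per kb.

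**Figure D1:**
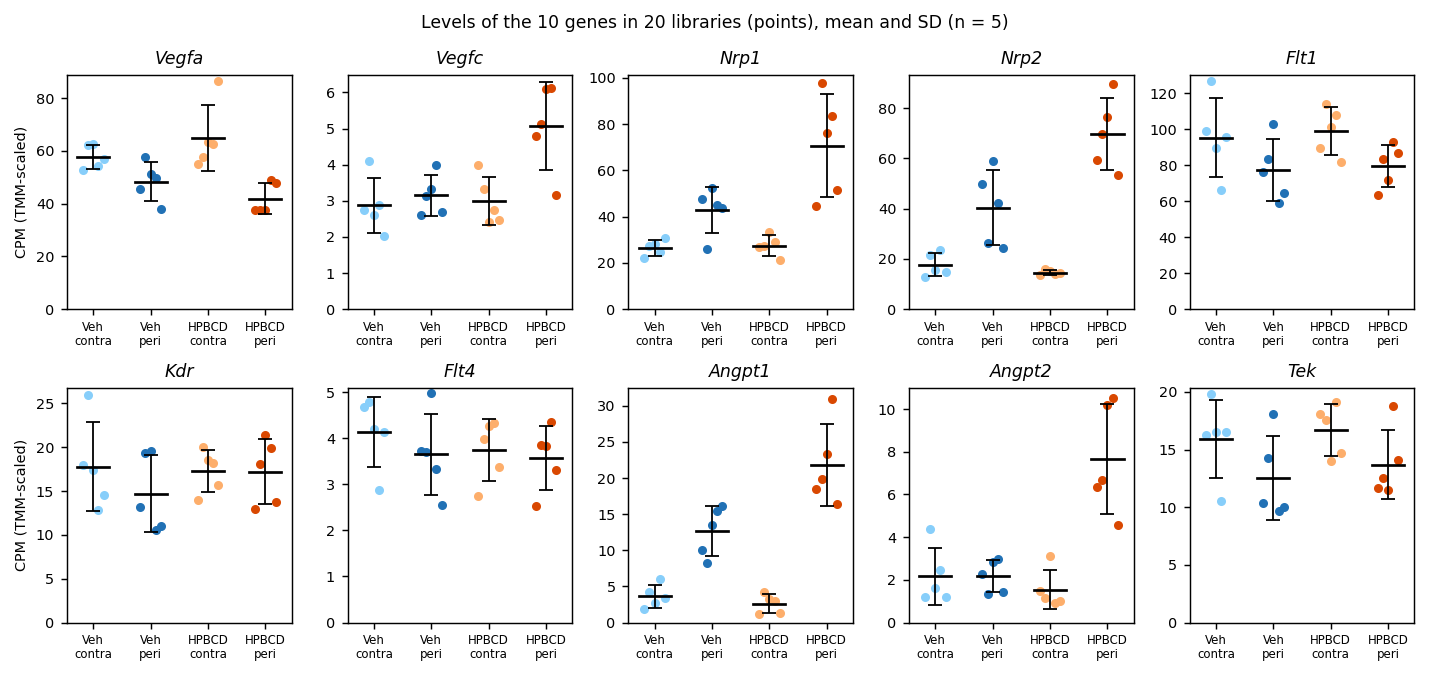
Level of each of the 10 genes (CPM, TMM-scaled, linear axis from 0) in the 20 libraries, with 5 points per group and the group mean and SD in black. Nrp1, Nrp2, Angpt1 and Angpt2 have their highest means in HPBCD peri-infarct tissue (70.7, 69.7, 21.8 and 7.67 CPM), while Kdr and Flt4 overlap in all 4 groups.

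The comparison of peri-infarct with contralateral tissue in mice labelled vehicle asks what differs beside the infarct in these mice. Angpt1, Nrp2 and Nrp1 were higher in peri-infarct tissue, by 3.46, 2.26 and 1.6 times, and no gene of the 10 was called lower. A gene is called where its adjusted p from the quasi-likelihood test of edgeR is under 0.05. Of the 10 genes, 3 were called higher and 0 lower, against 10.5% higher and 9.70% lower of 15801 genes tested. These 3195 calls over all genes fell to 2038 without vehicle peri-infarct replicate 4 and to 2000 without vehicle contralateral replicate 5. The median log2 fold change of the 10 was -0.1, against 0.015 over all genes tested. In bulk tissue, fewer cells of a type and less RNA per cell cannot be told apart.

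Angpt1, the ligand that activates Tek, was at 1.81, 4.2, 2.73, 6.03 and 3.35 CPM in vehicle contralateral libraries 1 to 5 and at 10.1, 8.2, 13.5, 15.5 and 16.1 CPM in the peri-infarct libraries of the same mice. Every peri-infarct library was above every contralateral one. It had a log2 fold change of 1.79, with an SE of 0.29 (edgeR adjusted p = 0.00295). Nrp2, a co-receptor for Vegfc and for class 3 semaphorins, was at 13, 21.7, 15.6, 23.5 and 14.7 CPM in contralateral and at 49.6, 26.5, 58.9, 42.4 and 24.2 CPM in peri-infarct libraries. These groups did not overlap either, although mice 2 and 5 lay close to the contralateral range. The log2 fold change of Nrp2 was 1.18 ± 0.26 (SE, edgeR adjusted p = 0.0103). Nrp1, a co-receptor for Vegfa and for semaphorin 3A, was at 22.1, 27.3, 28.3, 24.6 and 30.9 CPM in contralateral and at 47.8, 26.2, 52.4, 45 and 43.6 CPM in peri-infarct libraries. In mouse 2 the peri-infarct value lay within the contralateral range, and in the other 4 it lay above it. The log2 fold change of Nrp1 was 0.68 ± 0.16 (SE, edgeR adjusted p = 0.0145). All 3 calls held in each of the 10 fits that left out 1 library.

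Angpt2, the second angiopoietin, did not follow Angpt1. Its log2 fold change was 0.00 (-0.0038, SE 0.39, edgeR adjusted p = 0.996), and its libraries ranged from 1.18 to 4.36 CPM in contralateral and from 1.33 to 2.97 CPM in peri-infarct tissue. Mouse 2 had both the highest contralateral value and the lowest peri-infarct value, a difference of -1.63 on the log2 scale, while the other 4 mice were 0.26 to 0.87 higher in peri-infarct tissue. Vegfa, at a log2 fold change of -0.27 with an SE of 0.11 (edgeR adjusted p = 0.099), was lower in peri-infarct tissue in 5 of 5 mice and did not pass the test. The 4 receptors all had negative log2 fold changes that did not pass it either, -0.32 for Flt1, -0.28 for Kdr, -0.19 for Flt4 and -0.36 for Tek, with adjusted p from 0.234 to 0.546. With limma voom and quality weights in place of edgeR, Vegfa (-0.34, adjusted p = 0.0211), Flt1 (-0.47, adjusted p = 0.0329) and Tek (-0.6, adjusted p = 0.0137) were called lower, so that 6 of the 10 were called. Over all 15801 genes tested, voom called 2712 higher and 2353 lower, where edgeR called 1662 and 1533. Vegfc had a log2 fold change of 0.12 with an SE of 0.21 (edgeR adjusted p = 0.715).

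**Figure D2:**
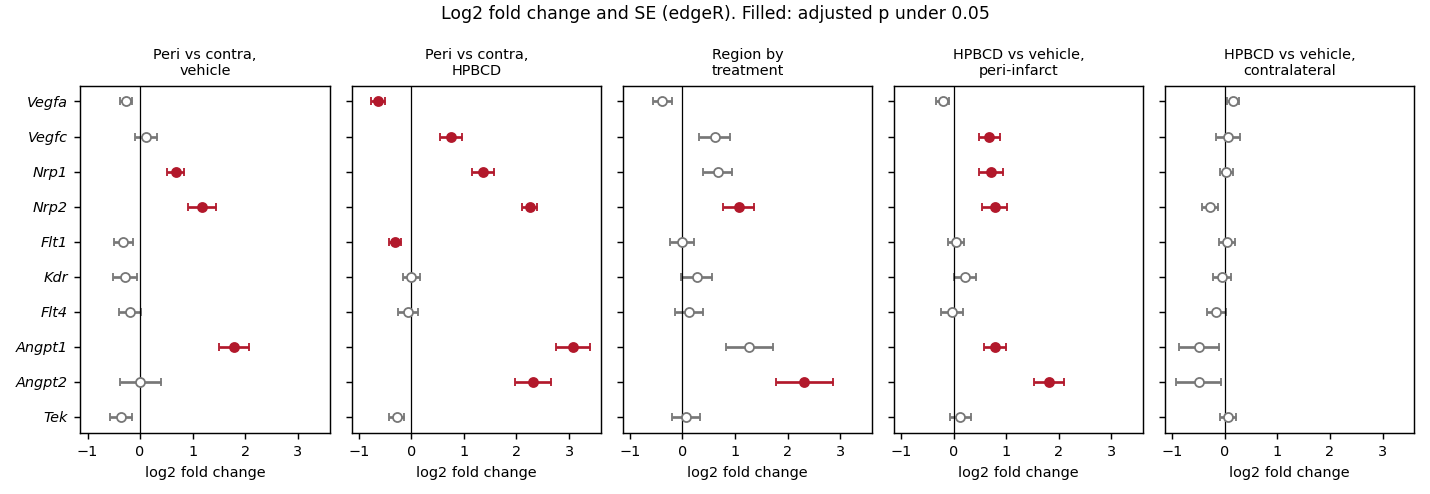
Log2 fold change (point) and SE (bar) of the 10 genes in 5 comparisons, from edgeR. Filled red points have an adjusted p under 0.05: 3 genes in vehicle mice, 7 in HPBCD mice, 2 for the difference between these changes, 5 between treatments in peri-infarct tissue and 0 in contralateral tissue.

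The same comparison in mice labelled HPBCD gave more calls. Angpt1, Angpt2, Nrp2, Nrp1 and Vegfc were higher in peri-infarct tissue, by 8.42, 5, 4.77, 2.58 and 1.68 times, and Vegfa and Flt1 were lower, at 64.4% and 80.6% of the contralateral level. Of the 10 genes, 5 were called higher and 2 lower, where 30.3% of 16047 genes tested were higher and 24.3% lower. The median log2 fold change of the 10 was 0.37, against 0.032 over all genes tested.

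Among the ligands, Vegfa was at 55, 57.5, 63.5, 62.5 and 86.4 CPM in HPBCD contralateral libraries 1 to 5 and at 37.6, 37.5, 37.6, 48.8 and 47.8 CPM in the peri-infarct libraries. The groups did not overlap and the level was lower in 5 of 5 mice, with a log2 fold change of -0.63 with an SE of 0.13 (edgeR adjusted p = 0.0011). Vegfc was at 3.99, 3.33, 2.41, 2.74 and 2.48 CPM in contralateral and at 4.79, 5.12, 6.1, 6.13 and 3.16 CPM in peri-infarct libraries. It was higher in 5 of 5 mice although the ranges overlapped, since peri-infarct library 5 lay below contralateral libraries 1 and 2. Its log2 fold change was 0.75 (SE 0.21, edgeR adjusted p = 0.01), and without the libraries that stood apart it was 0.62 and not called (adjusted p = 0.0686).

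Both angiopoietins were higher in peri-infarct tissue of these mice. Angpt1 was at 1.15, 4.24, 3.31, 2.97 and 1.35 CPM in contralateral and at 18.5, 19.9, 23.3, 31 and 16.4 CPM in peri-infarct libraries, a log2 fold change of 3.07 with an SE of 0.32 (edgeR adjusted p = 5.85e-06). Angpt2 was at 1.5, 1.16, 3.1, 0.913 and 1.01 CPM in contralateral and at 6.35, 6.69, 10.2, 10.5 and 4.59 CPM in peri-infarct libraries, a log2 fold change of 2.32 with an SE of 0.34 (edgeR adjusted p = 8.87e-05). For each of them the groups did not overlap. The highest contralateral value of Angpt2 belonged to replicate 3, the library with the choroid plexus markers, and without the 3 libraries that stood apart the log2 fold change was 2.63 (adjusted p = 0.000113).

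The co-receptors rose as well. Nrp1 was at 26.9, 27.2, 33.4, 29 and 21.1 CPM in contralateral and at 44.7, 97.6, 76.2, 83.6 and 51.6 CPM in peri-infarct libraries, a log2 fold change of 1.37 with an SE of 0.21 (edgeR adjusted p = 0.000129). Nrp2 was at 13.5, 15.9, 15.1, 14.2 and 14.3 CPM in contralateral and at 59.3, 69.7, 76.5, 89.5 and 53.4 CPM in peri-infarct libraries, a log2 fold change of 2.25 with an SE of 0.14 (edgeR adjusted p = 2.98e-07). The lowest peri-infarct value was above the highest contralateral value for both genes, and the contralateral values of Nrp2 varied least of any group of the 10 genes (coefficient of variation 6.3%).

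Among the receptors Flt1 was called by edgeR. It was at 89.6, 114, 101, 108 and 81.8 CPM in contralateral and at 63.6, 83.3, 71.6, 92.8 and 86.7 CPM in peri-infarct libraries, so the ranges overlapped and 4 of 5 mice were lower in peri-infarct tissue. The log2 fold change was -0.31 (SE 0.12, edgeR adjusted p = 0.0492). This call was lost in 4 of 9 alternatives and in 5 of 10 fits that left out 1 library, those without peri-infarct replicate 1 or 3 and those without contralateral replicate 2, 3 or 4, with an adjusted p of up to 0.112 in these 10 fits. Among the alternatives, the fit without the libraries that stood apart put Flt1 at -0.26 (adjusted p = 0.192). Kdr (0.00, SE 0.16), Flt4 (-0.06, SE 0.19) and Tek (-0.28, SE 0.15) did not pass the test, with adjusted p of 0.999, 0.8 and 0.118. Tek was lower in peri-infarct tissue in 5 of 5 mice, by 0.02 to 0.62 on the log2 scale, and was called lower with voom (-0.35, adjusted p = 0.0261) and with edgeR when HPBCD peri-infarct replicate 4 was left out (-0.43, adjusted p = 0.0101).

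**Figure D3:**
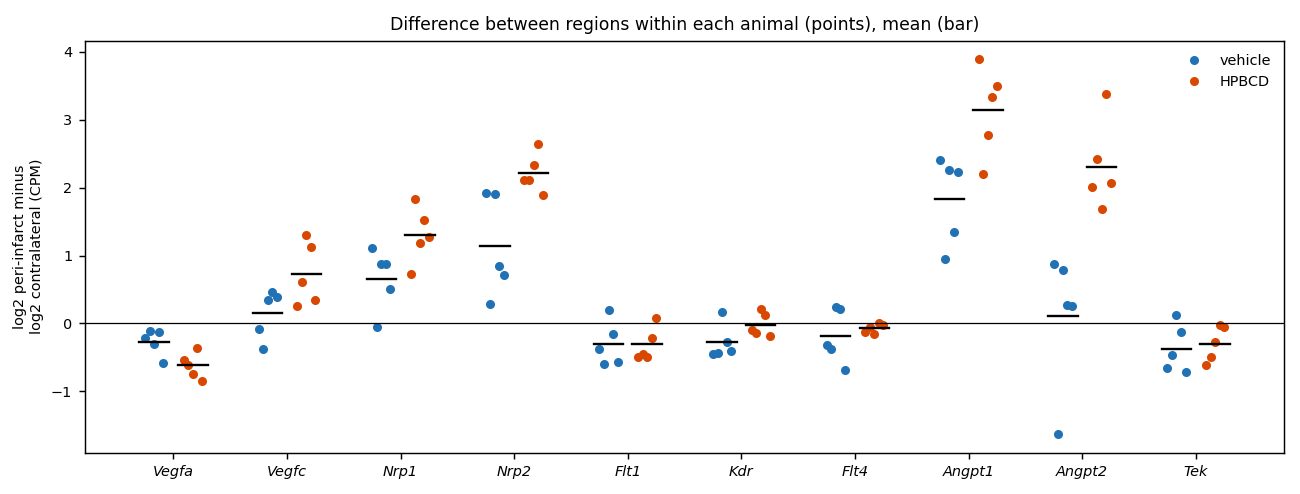
Difference of log2 CPM between the peri-infarct and the contralateral library of each mouse (points, 5 per treatment) and their mean (bar). Angpt1 and Nrp2 are above 0 in all 10 mice and Vegfa is below 0 in all 10, and vehicle mouse 2 has the lowest Angpt2 difference at -1.63.

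The region by treatment interaction asks whether the change from contralateral to peri-infarct tissue differed between treatments, which the comparisons above do not test. Angpt2 and Nrp2 had higher log2 fold changes in mice labelled HPBCD, with differences between the log2 fold changes of 2.32 (SE 0.54, edgeR adjusted p = 0.02) and 1.07 (SE 0.3, adjusted p = 0.0352). These 2 genes were called higher and 0 of the 10 lower, against 5.03% higher and 4.38% lower of 16758 genes tested. These shares rest on single libraries, as given below. The differences within mice for Angpt2 ran from -1.63 to 0.87 in vehicle mice and from 1.69 to 3.38 in mice labelled HPBCD. Those for Nrp2 ran from 0.29 to 1.92 and from 1.89 to 2.64, so that vehicle mice 1 and 3, at 1.92 and 1.91, were just above the lowest HPBCD mouse. Angpt1 had the next largest difference, 1.27 (SE 0.45, edgeR adjusted p = 0.0771), and was called with DESeq2 (1.26, adjusted p = 0.0401) and in the fit with the mouse as a block (1.3, adjusted p = 0.0455). Nrp1 (0.67, adjusted p = 0.114), Vegfc (0.61, adjusted p = 0.18) and Vegfa (-0.38, adjusted p = 0.163) did not pass the test, nor did the receptors, whose differences lay between -0.01 (Flt1) and 0.27 (Kdr).

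The interaction call of Nrp2 depended on single libraries. It lost its call in 8 of 20 fits that left out 1 library (vehicle peri-infarct 2, vehicle contralateral 2, HPBCD peri-infarct 3 or 4, HPBCD contralateral 1, 2, 4 or 5), with an adjusted p of up to 0.0696, and Angpt2 kept its call in all 20, with an adjusted p of up to 0.0437. Without the 3 libraries that stood apart, the differences were 2.78 for Angpt2 (adjusted p = 0.0542) and 1.16 for Nrp2 (adjusted p = 0.0832), so 0 of the 10 genes were called, and 9 genes of all those tested were called in place of 1577. When 1 library was left out, the calls over all genes ran from 529 (without vehicle peri-infarct replicate 2) to 3121 (without HPBCD peri-infarct replicate 2).

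The tissue beside the infarct was then compared between treatments, as labelled, to ask how it differed between them. Angpt2 was higher by 3.51 times in the libraries labelled HPBCD. Nrp2, Angpt1, Nrp1 and Vegfc were higher by 1.72, 1.71, 1.64 and 1.6 times. Of the 10 genes, 5 were called higher and 0 lower, against 12.4% higher and 9.00% lower of 16224 genes tested, and the median log2 fold change of the 10 was 0.45 against 0.014 over all genes tested. The 3471 calls over all genes behind these shares fell to 823 without HPBCD peri-infarct replicate 3, the library with 734 CPM of choroid plexus markers, and rose to 5339 without HPBCD peri-infarct replicate 2. This comparison shares its libraries with those between regions and the interaction, so the calls in them are not separate evidence.

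The values of each library are those given above for both groups, except for genes not called in vehicle mice. Angpt2 was at 2.29, 1.33, 2.82, 2.97 and 1.44 CPM in vehicle peri-infarct libraries 1 to 5, all below the lowest HPBCD peri-infarct library at 4.59 CPM. Its log2 fold change was 1.81 (SE 0.29, edgeR adjusted p = 0.0128), called in all 10 fits that left out 1 library. For Angpt1 (0.78, SE 0.21, edgeR adjusted p = 0.0288) the groups did not overlap either, although the lowest HPBCD library, at 16.4 CPM, was close to the highest vehicle library, at 16.1 CPM. Vegfc was at 2.6, 3.13, 3.33, 4 and 2.68 CPM in vehicle peri-infarct libraries, which HPBCD library 5 (3.16 CPM) overlapped. Its log2 fold change was 0.68 (SE 0.2, edgeR adjusted p = 0.0377). Nrp2 (0.78, SE 0.24, edgeR adjusted p = 0.041) and Nrp1 (0.71, SE 0.23, adjusted p = 0.0486) also overlapped between the groups. The calls of Vegfc, Nrp1, Nrp2 and Angpt1 were lost in 5, 7, 6 and 4 of 10 fits that left out 1 library, and the number of the 10 genes called fell to 1 without vehicle peri-infarct replicate 1 or 2 or HPBCD peri-infarct replicate 3 or 4, to 2 without vehicle replicate 5 and to 3 without vehicle replicate 4. Vegfc was also not called with no filter on low counts (adjusted p = 0.051) or with voom (0.0799), Nrp1 not with RLE factors (0.0505), voom (0.0663) or the replicate block (0.0802), and Angpt1 not with all 4 groups in 1 fit (0.0531).

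Vegfa, called lower in peri-infarct tissue of HPBCD mice, was at 45.4, 57.6, 51.1, 49.6 and 37.9 CPM in vehicle peri-infarct libraries. Against these, its log2 fold change in the libraries labelled HPBCD was -0.21 (SE 0.12, edgeR adjusted p = 0.214), with overlapping groups. The receptors Flt1 (0.04, SE 0.15), Kdr (0.22, SE 0.21), Flt4 (-0.04, SE 0.21) and Tek (0.13, SE 0.2) did not pass the test, with adjusted p from 0.461 to 0.905. Angpt2 and Angpt1 also differed in their proportion. Per length, Angpt2 stood to Angpt1 at 0.498 to 1.47 in vehicle contralateral and 0.386 to 1.84 in HPBCD contralateral libraries, at 0.126 to 0.321 in vehicle peri-infarct libraries and at 0.395 to 0.617 in HPBCD peri-infarct libraries. This ratio was computed after its parts had been seen and was not tested.

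Contralateral libraries labelled HPBCD were compared with those labelled vehicle in the same way. None of the 10 genes passed, and 0 of them had an unadjusted p under 0.05 (edgeR). Of 15469 genes tested, 0 were called (0%), with 1224 at an unadjusted p under 0.05, where DESeq2 called 49. The log2 fold changes of the 10 lay between -0.5 (Angpt2, SE 0.42) and 0.16 (Vegfa, SE 0.11), with a median of -0.01.

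Other genes of the same pathways were taken from lists. Among 5 further VEGF ligands and processing genes, Vegfb, a ligand of Flt1, was lower in peri-infarct tissue in both treatments, at log2 fold changes of -0.34 (SE 0.09, edgeR adjusted p = 0.0213) in vehicle and -0.33 (SE 0.1, adjusted p = 0.0126) in HPBCD mice. Vegfd, a ligand of Flt4, was higher in both, at 1.33 (adjusted p = 0.0322) and 1.23 (adjusted p = 0.0216). Pgf, which binds Flt1, was called higher in HPBCD mice (1.43, adjusted p = 0.000208) and not in vehicle mice, as was Ccbe1 (1.26, adjusted p = 0.0004), which helps to bring Vegfc into its active form. In vehicle mice 1 of the 5 was called higher and 1 lower, where 10.5% and 9.70% of all genes tested were. In HPBCD mice 4 were higher and 1 lower, against 30.3% and 24.3% of all genes. Of the 5, 0 were called for the interaction, between treatments in peri-infarct tissue or in contralateral tissue (edgeR).

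On the angiopoietin side 3 of 4 listed genes could be tested, and Angpt4 was too low. Tie1, the partner of Tek, and Ptprb, the phosphatase that acts on Tek, were called in none of the 5 comparisons. Svep1, a large extracellular protein and ligand of Tie1, was called higher in peri-infarct tissue of HPBCD mice (1.58, SE 0.35, edgeR adjusted p = 0.00214), for the interaction (1.76, adjusted p = 0.028) and between treatments in peri-infarct tissue (1.35, adjusted p = 0.0141). It was 1 of 3 tested in each, where 30.3%, 5.03% and 12.4% of all genes tested were called higher.

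Among 7 class 3 semaphorins, the other ligands of the neuropilins, 2 were called higher in peri-infarct tissue in each treatment and 0 lower, where 10.5% of all genes tested were higher in vehicle and 30.3% in HPBCD mice. They were Sema3b, at 0.97 (edgeR adjusted p = 0.0456) in vehicle and 2.79 (adjusted p = 3.94e-06) in HPBCD mice, and Sema3d, at 1.12 (adjusted p = 0.0262) and 2.38 (adjusted p = 1.57e-05). Both were also higher between treatments in peri-infarct tissue (1.41 and 1.38), where 12.4% of all genes tested were called higher. Sema3b was called for the interaction (1.8, adjusted p = 0.022), where 5.03% were called higher. Of 5 plexins that signal with the neuropilins, Plxna3 was called higher in vehicle mice (0.43, SE 0.11, edgeR adjusted p = 0.0158) and 0 were called in the other comparisons.

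Of 6 genes of the hypoxia response, Hif1a was higher in both treatments, at 0.32 (edgeR adjusted p = 0.0225) and 0.34 (adjusted p = 0.00166), where Vegfa, its textbook target, had negative log2 fold changes. Egln3, a prolyl hydroxylase that marks Hif1a for removal, was called higher in HPBCD mice (1.35, adjusted p = 0.000236) and between treatments in peri-infarct tissue (1, adjusted p = 0.0337), and Vhl was called in HPBCD mice (0.22, adjusted p = 0.0255). Of the 6, 1 was called higher in vehicle mice, 3 in HPBCD mice and 1 between treatments in peri-infarct tissue. The shares over all genes tested were 10.5%, 30.3% and 12.4%. Of 8 tested genes of endothelial sprouting and Notch signalling, 2 were called higher and 1 lower in vehicle mice, where 10.5% of all genes tested were higher and 9.70% lower, and 3 and 1 in HPBCD mice, where 30.3% of all genes tested were higher and 24.3% lower. Cxcr4, a chemokine receptor of tip cells and leukocytes, was at 2.83 (edgeR adjusted p = 0.0035) and 5.44 (adjusted p = 9e-07), Notch1 at 0.86 (adjusted p = 0.00467) and 1.42 (adjusted p = 2.13e-05), and Apln, a peptide of tip cells, at -0.62 (adjusted p = 0.035) and -0.79 (adjusted p = 0.000839). Jag1, a Notch ligand, was called in HPBCD mice (0.89, adjusted p = 0.00206).

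Markers of the cells that carry these genes were followed beside them. The 14 endothelial markers summed to 266 to 464 CPM in vehicle contralateral, 269 to 434 CPM in vehicle peri-infarct, 351 to 381 CPM in HPBCD contralateral and 367 to 563 CPM in HPBCD peri-infarct libraries, and each of the 14 was measured. In vehicle mice 0 of the 14 were called between regions (edgeR), where 10.5% of all genes tested were higher and 9.70% lower. Their median log2 fold change was -0.16, and 1 of the 14 had a positive value. In HPBCD mice 5 were higher, led by Cdh5 (VE-cadherin, 1.02, adjusted p = 0.000206), Vwf (0.88, adjusted p = 0.000295) and Abcb1a (0.87, adjusted p = 0.00168), where 30.3% of all genes tested were higher, and 4 were lower, where 24.3% were, led by Esam (-0.57, adjusted p = 0.00323), Egfl7 (-0.54, adjusted p = 0.00178) and Ly6c1 (-0.5, adjusted p = 0.0191). Pecam1, Cldn5, Emcn, Slco1a4 and Plvap were not called in these mice, and the list had a median log2 fold change of -0.04.

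Markers of other cell types also differed between regions. Their counts stand beside 10.5% higher and 9.70% lower of all genes tested in vehicle mice, and 30.3% and 24.3% in HPBCD mice. The 6 fibroblast and meningeal markers summed to 103 to 316 CPM in vehicle peri-infarct and 356 to 1045 CPM in HPBCD peri-infarct libraries, against 49 to 136 and 60.7 to 122 CPM in contralateral libraries. All 6 were called higher in HPBCD mice (edgeR, median log2 fold change 3.87), 2 in vehicle mice and 5 between treatments in peri-infarct tissue (2.55). Of 9 pericyte and smooth muscle markers, 4 were called higher in HPBCD mice, among them Anpep (3.41, adjusted p = 1.37e-05), Acta2 (1.55, adjusted p = 0.00142) and Pdgfrb (1.29, adjusted p = 1.79e-05). Rgs5 (-0.18), Abcc9 (-0.26), Higd1b (-0.19), Kcnj8 (-0.01) and Myh11 (0.28) were not called, the median of the 9 was 0.28, and the sum was 324 to 450 CPM there against 189 to 296 CPM in the other 15 libraries. Microglia and macrophage markers were called higher in 7 of 8 in vehicle and 8 of 8 in HPBCD mice, summing to 522 to 1518 and 871 to 1847 CPM in peri-infarct against 273 to 348 CPM in contralateral libraries. Neuron markers were called lower in 3 of 7 and 7 of 7, with 6185 to 8343 CPM in vehicle and 3089 to 6326 CPM in HPBCD peri-infarct libraries. In HPBCD mice edgeR also called higher 5 of 5 striatal markers (median log2 fold change 3.75), 4 of 4 of oligodendrocytes (1.18), 3 of 3 of lymphatic endothelium (1.38), 3 of 5 of ependyma and choroid plexus (2.73) and 4 of 6 of astrocytes (0.84). In vehicle mice these were 0 of 5, 0 of 4, 1 of 3, 1 of 4 and 4 of 6. The striatal sum was 219 to 659 CPM in HPBCD peri-infarct libraries, each above all 5 HPBCD contralateral ones, of which the lowest had 76.7 CPM. In vehicle mice it was 120 to 744 CPM in peri-infarct libraries, each above the 73.7 to 89.6 CPM of contralateral libraries 2 to 5 and below the 1158 CPM of contralateral replicate 1, the library that stood apart. Between treatments in peri-infarct tissue, where 12.4% of all genes tested were called higher and 9.00% lower, edgeR called 0 of 5 striatal markers (median log2 fold change 0.43). It called higher 4 of 9 pericyte and smooth muscle markers (0.71), 3 of 5 of ependyma and choroid plexus (1.94), 1 of 3 of lymphatic endothelium (1.1), 1 of 8 of microglia and macrophages (0.51), 1 of 6 of astrocytes (0.33) and 0 of 4 of oligodendrocytes (0.6). Of 14 endothelial markers 4 were higher and 1 lower (0.11), and of 7 neuron markers 5 were lower (-0.59). For the interaction, where 5.03% of all genes tested were higher and 4.38% lower, edgeR called higher 4 of 6 fibroblast and meningeal markers (median difference 2.58), 2 of 9 of pericytes and smooth muscle (0.8), 2 of 5 of ependyma and choroid plexus (1.68), 2 of 14 of endothelium (0.16), 1 of 4 of oligodendrocytes (1.04) and 1 of 6 of astrocytes (0.24). It called lower 4 of 7 neuron markers (-0.66). None of the 5 striatal (3.24), 8 microglial and macrophage (0.63) or 3 lymphatic markers (0.77) was called. Vehicle peri-infarct replicate 2, which had the lowest Angpt1 and Nrp1 of its group, also had the lowest microglial sum and the highest neuronal sum. The part of cell composition in the values of the 10 genes was not tested.

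**Figure D4:**
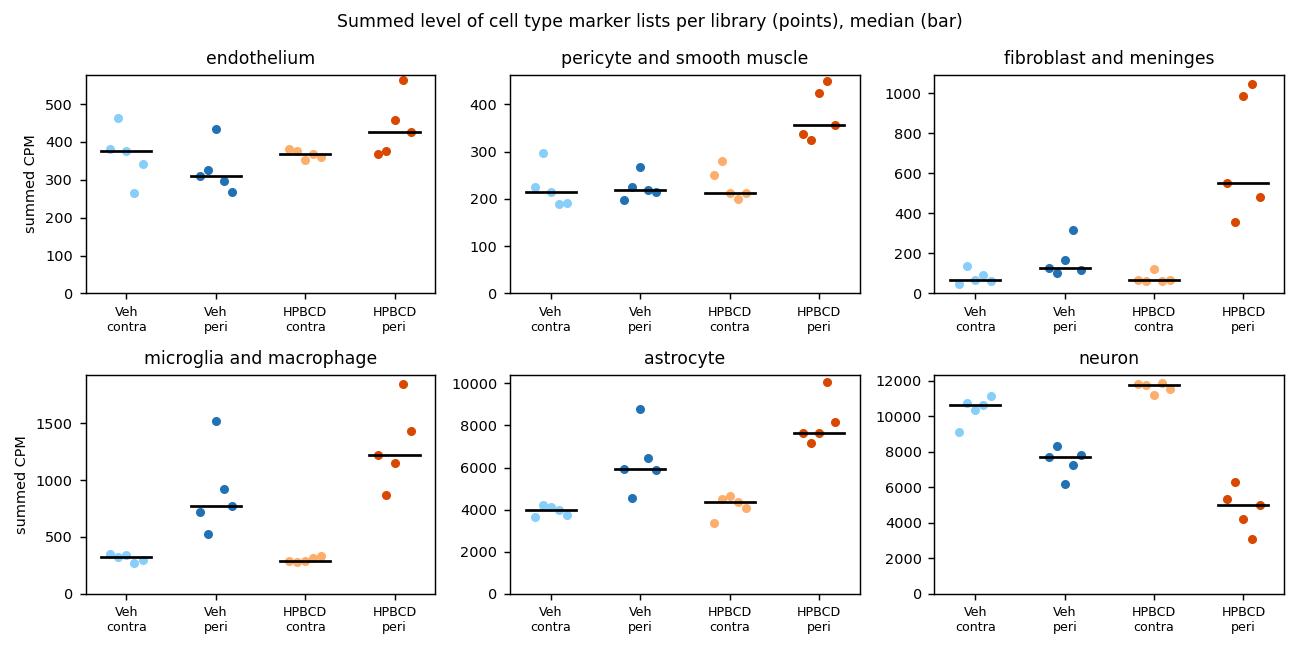
Summed CPM of the markers of 6 cell types in each library (points) and the median of each group (bar), on linear axes from 0. Fibroblast and pericyte sums are highest in HPBCD peri-infarct tissue, where the fibroblast sum is 356 to 1045 CPM, and the endothelial sums overlap between every pair of groups.

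Across libraries the 10 genes fell into groups by their correlation. The receptors went together, with a Pearson r of log2 CPM over 20 libraries of 0.89 for Flt1 with Tek, 0.76 for Flt1 with Kdr and with Flt4, and 0.77 for Kdr with Flt4. These values were 0.86, 0.79, 0.81 and 0.8 after the mean of each group was subtracted, so they also described libraries of 1 group. Nrp2 went with Angpt1 (0.92), Nrp1 (0.9) and Angpt2 (0.84), and after the group means were subtracted these were 0.46, 0.52 and 0.71. Vegfa ran against Angpt1 (-0.78), Nrp1 (-0.75) and Nrp2 (-0.71) over all libraries, but at -0.2, -0.27 and 0.14 within groups. The points share regions, mice and scaling, so these are descriptions of 20 libraries.

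**Figure D5:**
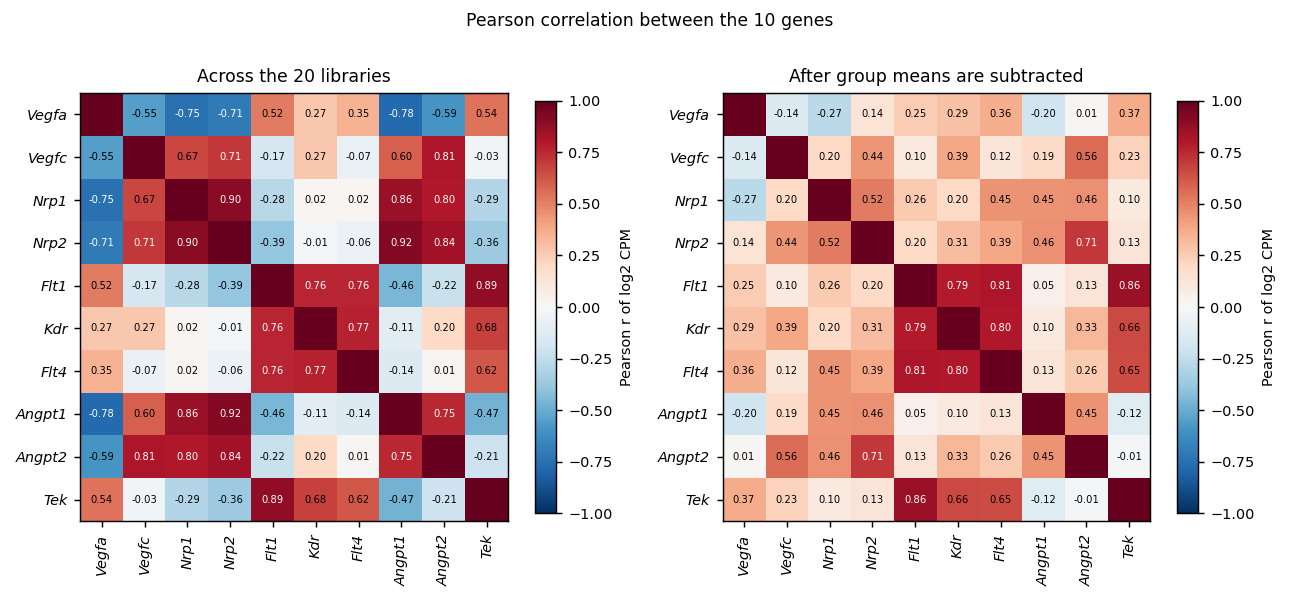
Pearson correlation of log2 CPM between the 10 genes over 20 libraries, at left over all of them and at right after the mean of each group is subtracted. The receptors Flt1, Kdr, Flt4 and Tek stay between 0.65 and 0.86 in the right panel, while Vegfa goes from -0.78 to -0.2 with Angpt1.

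The genes most like each of the 10, among 11794 genes, were ranked by the same r over 20 libraries. Tek was most like Cldn5 (0.933), the claudin of the blood-brain barrier, and Flt1 was most like Adgrf5 (0.898) and Tek (0.895). Kdr was most like Cyyr1 (0.847) and Ptprb (0.794), and Flt4 like Epas1 (0.799), the endothelial HIF subunit. Angpt1 was most like Dpysl3 (0.97), Nln (0.963) and Notch1 (0.96), and Angpt2 like Olfml2a (0.968), Foxc2 (0.963) and Ddr2 (0.962). Nrp1 was most like Pgm5 (0.962) and Nrp2 like Ptpn14 (0.964). Vegfc was most like Alpl (0.882), Vtn (0.875) and Cd248 (0.873), the last a gene of pericytes and fibroblasts, and Vegfa like Robo3 (0.901), Tmem44 (0.885) and Camk2n1 (0.883). Group differences enter each of these values.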

How the data were processed

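The authors prepared stranded mRNA libraries, trimmed read pairs with Trimmomatic 0.32, aligned them to GRCm38 with STAR 2.5.2b and counted pairs per gene with HTSeq. The deposited values are raw counts, 1 table per library, and no fold change of the authors was used. The annotation release and strand option are not given in the sources used here. Of 46078 gene IDs, 45229 (98.16%) matched GENCODE M21, which gave symbols, coordinates and exon lengths. Totals and tests exclude the 5 summary rows of each table, which held 25.14% to 40.07% of the pairs.

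Differences were tested with the edgeR 4.0.16 quasi-likelihood test (R 4.3.3, TMM factors, filterByExpr), adjusted by Benjamini-Hochberg over all genes tested. Each comparison used its 10 libraries and the interaction all 20. The SE is the log2 fold change divided by the square root of F. Log2 CPM used a prior count of 2. On simulated counts for the vehicle comparison (15801 genes, 200 of them changed), edgeR recovered 77.5% of the changed genes. DESeq2 1.42.0, limma 3.58.1, other scalings and filters, fits without 1 library and fits with a replicate block were alternatives. The alternative without the 3 libraries that stood apart, the GGGCGG search and the angiopoietin ratio were added after seeing the data.

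Peri-infarct and contralateral libraries of 1 mouse share an animal number in the deposited names and a replicate number. Their deviations from group means correlated at a mean r of 0.088 over 10 pairs. Between treatments, where a shared number is only a name, the mean r of same-numbered libraries was 0.115 in peri-infarct and -0.016 in contralateral tissue. Libraries are separate samples in the labels, so p-values measure the spread between these samples. Floors cover counting error only. The 10 genes and all lists were chosen with earlier results of these data known. All 10 genes are named, and of each other pathway list up to 3 called genes per direction with the largest log2 fold change. Cell type markers, and listed genes not called, were named after their values were seen.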

Additional observations from a re-analysis of the deposited data

Results flagged for a closer look

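Vegfa in HPBCD contralateral replicate 5 was at 86.4 CPM, far from the 55 to 63.5 CPM of the other 4 libraries of its group. Angpt2 in HPBCD contralateral replicate 3 was at 3.1 CPM, far from the 0.913 to 1.5 CPM of the other 4, in the library with 612 CPM of ependyma and choroid plexus markers. Whether the 2 go together was not tested. Among 40 groups of 5 values examined in this way, 2 had such a library, and chance alone gives about 1 in 20.

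Angpt2 and Nrp2 differed between treatments in their change from contralateral to peri-infarct tissue, by 2.32 and 1.07 on the log2 scale (edgeR interaction, adjusted p = 0.02 and 0.0352). Without the 3 libraries that stood apart neither was called (adjusted p = 0.0542 and 0.0832), and Nrp2 lost its call in 8 of 20 fits that left out 1 library.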

How the results depend on the processing

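Over 50 results (10 genes in 5 comparisons), 1030 values were computed under alternatives; 919 kept their direction and their side of the threshold, 48 lost a call, 9 gained one and 54 changed sign. The sign changes outside the fits that left out 1 library were all of log2 fold changes that were not called. Angpt2 in vehicle mice went to 0.02 with at least 10 counts in every library, 0.24 with voom, 0.11 with the replicate block and 0.00806 with all 4 groups in 1 fit. Kdr in HPBCD mice went to -0.03 with DESeq2 and with RLE factors, -0.08 with no filter, -0.19 with voom, -0.02 with the replicate block and -0.00103 in 1 fit. Flt1 for the interaction went to 0.03 with upper quartile factors, 0.02 with at least 10 counts, 0.04 with voom and 0.03 without the 3 libraries that stood apart, where Flt4 in HPBCD mice was 0.08 and Nrp1 between treatments in contralateral tissue -0.16. Voom put Kdr and Tek between treatments in contralateral tissue at 0.03 and -0.01. When 1 library was left out, sign changes were again of log2 fold changes not called: the ranges were -0.15 to 0.43 for Angpt2 in vehicle mice, -0.1 to 0.08 for Kdr and -0.16 to 0.03 for Flt4 in HPBCD mice, and -0.13 to 0.13 for Flt1 and -0.07 to 0.24 for Tek for the interaction. Between treatments they were -0.04 to 0.17 for Flt1, -0.14 to 0.1 for Flt4 and -0.00163 to 0.3 for Tek in peri-infarct tissue, and -0.07 to 0.22 for Vegfc, -0.04 to 0.12 for Nrp1, -0.07 to 0.17 for Flt1, -0.15 to 0.13 for Kdr and -0.06 to 0.15 for Tek in contralateral tissue.

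The number of the 10 genes called in vehicle mice was 6 with voom and 3 to 4 when 1 library was left out. In HPBCD mice it was 6 to 8 when 1 library was left out and 5 without the 3 libraries. For the interaction it was 1 to 3 when 1 library was left out and 0 without the 3 libraries. Between treatments it was 3 with voom and 1 to 5 when 1 library was left out in peri-infarct tissue, and 0 in every fit of contralateral tissue. The replicate block, in which mice are paired with themselves between regions, gave 3, 7 and 3 calls for vehicle, HPBCD and interaction. Between treatments it gave 4 in peri-infarct tissue, where Nrp1 was not called (0.68, adjusted p = 0.0802). Over all genes, calls rose from 3195 to 5065 with voom in vehicle mice, from 1577 to 2477 with DESeq2 and 4110 with voom for the interaction, and from 3471 to 6012 with voom between treatments in peri-infarct tissue. When 1 library was left out, they ran from 2000 to 3920 in vehicle mice, 8043 to 9382 in HPBCD mice, 529 to 3121 for the interaction and 823 to 5339 between treatments in peri-infarct tissue, and the shares over all genes move with them. In contralateral tissue they rose from 0 to 49 with DESeq2, 2 with no filter and 1 with the replicate block. The causes were not tested.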
